A study of Mus musculus with 12 samples.

Results

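The genes that build cholesterol and fatty acids were followed in mouse embryonic lungs that carried floxed Yy1 or floxed Dicer together with an epithelial Cre allele. The set held 34 genes chosen by name: 18 enzymes of sterol synthesis, 6 genes that regulate the Srebp transcription factors or carry sterol, and 10 genes of fatty acid synthesis. A gene was measured by the probe sets annotated with its symbol alone, and where several existed the one with the highest mean over all arrays was used. This gave values for 31 of the 34 genes, out of 22180 genes in all: 16 sterol enzymes, all 6 regulators and transport genes, and 9 fatty acid genes. Idi1 and Scd2 each had 1 probe set that carried several symbols, and no probe set was listed for Acat2, so these 3 were not analysed here. Of the measured members, only Scap had more than 1 probe set.

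Total RNA from whole mid-gestation lungs (stage E14.5) was hybridised to 12 single-colour Affymetrix arrays, 4 per genotype. Controls were Shh+/Cre, Yy1 mutants were Yy1flox/flox;Shh+/Cre, and Dicer mutants were Dicerflox/flox;Shh+/Cre, so that all 3 groups had the same Cre allele. That allele puts the recombinase under the Sonic hedgehog gene, which is active in lung epithelium, and the mesenchyme, vessels and blood in the RNA keep their floxed genes. The labels do not say whether specimens came from separate embryos or litters, and a p-value then measures only the spread between these specimens.

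Values are on the authors' log2 scale, on which a difference of -1 is a halving, and a difference was called at a limma adjusted p under 0.05 over all 22180 genes. The Dicer1 probe set read 8.81 ± 0.16 in controls (SD, n = 4) and 8.19 ± 0.11 in Dicer mutants (SD, n = 4), a difference of -0.61 (limma adjusted p = 0.00127). The Yy1 probe set read 9.03 ± 0.07 in controls and 8.84 ± 0.10 in Yy1 mutants, a difference of -0.19 that was not called (limma adjusted p = 0.125), and where in the gene the probes lie relative to the floxed part is not given. Of 20 lung epithelial markers 13 were called lower in Yy1 mutants and 13 in Dicer mutants, and their summed signal ran from 13.2 to 13.6 in controls, 12.3 to 12.6 in the Yy1 mutants and 12.7 to 12.9 in the Dicer mutants. Of 9 smooth muscle markers 7 and 8 were called lower, of 10 mesenchymal markers 5 and 6 higher, of 10 macrophage markers 7 and 9 higher, and of 14 proliferation markers 5 and 3 lower. Among all genes, 3.84% were called lower and 2.77% higher in Yy1 mutants, and 3.97% lower and 4.78% higher in Dicer mutants. Of 10 liver markers 0 were called by limma in either mutant (0 and 1 at an unadjusted p under 0.05), and of 6 erythroid markers 0 were called in Yy1 mutants (0 at an unadjusted p under 0.05) and 1 was higher in Dicer mutants. In whole lung RNA, fewer cells of a type and less RNA per cell cannot be told apart, and the part of these cell type shifts in the results on lipid genes was not tested. Yy1 mutant 2, Yy1 mutant 3 and Dicer mutant 4 carried raised Y-linked signal (Eif2s3y at 7.99, 5.92 and 7.84, against 3.73 to 4.48 on the other arrays), and these are called the 3 Y-signal arrays. All 3 are mutant arrays, so the sex of the embryos may not be balanced over the genotypes. On Yy1 mutant 3 the signal lay between that of the other raised arrays and the rest. The labels do not give sex, and its part in the results was not tested. Of the sterol enzymes, Ebp and Nsdhl lie on the X chromosome. Results that rest on the 3 Y-signal arrays are also given without them. That setting leaves Yy1 mutants 1 and 4, Dicer mutants 1, 2 and 3, and the 4 controls. A call can end there through the smaller number of arrays, and the part of that was not tested.

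Cells make cholesterol from acetyl-CoA through mevalonate, squalene and lanosterol, and long-chain fatty acids from the same acetyl-CoA through malonyl-CoA. Transcription of both routes is driven by the Srebp proteins, which are made as precursors in the endoplasmic reticulum, escorted to the Golgi by Scap when membrane sterol is low, and held back by Insig1 and Insig2 when it is high. Srebp2, from Srebf2, is known mainly for the sterol enzymes, and Srebp1, from Srebf1, mainly for fatty acid synthesis. In the lung, fatty acid synthesis later feeds the phospholipid of surfactant. Yy1 is a zinc finger transcription factor that has been described at several Srebp-responsive promoters, and Dicer cuts hairpin precursors into mature microRNAs.

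The promoters are shown first because the sterol enzymes lay lower together in both mutants. Windows from 250 bases before to 50 bases after a RefSeq start site (GRCm38.p6) were at hand for 27 of the 34 members: 15 sterol enzymes with 18 windows, 5 regulators and transport genes with 10, and 7 fatty acid genes with 8. No window was at hand for Sqle and Fdft1, which fell in both mutants, or for Fdps, Stard4, Scd1, Scd2 and Fads1. Idi1 and Acat2 had windows but were not measured, so the shares below do not describe only the enzymes that fell. Only the bases before the start were searched, on both strands. The CCAAT box, the motif of NF-Y, which works beside Srebp at sterol promoters, stood in 14 of 18 sterol enzyme windows (77.8%), 5 of 10 regulator windows (50%) and 3 of 8 fatty acid windows (37.5%), against 33.8% of all 32851 windows of the same length. GGGCGG, the Sp1 box, stood in 15 (83.3%), 7 (70%) and 3 (37.5%), against 32.7% of all. CACNCCAC, the core of a sterol regulatory element, stood in 2 (11.1%), 1 (10%) and 0, against 5.29%, and its longer form TCACNCCAC, which contains it, in 1 (5.56%), 0 and 0, against 1.05%. The 2 sterol enzyme windows with CACNCCAC were those of Hmgcs1 and of the unmeasured Acat2. CACGTG, an E-box, stood in 3 (16.7%), 2 (20%) and 1 (12.5%), against 6.02%. CCATNTT, the core of the Yy1 motif, stood in 2 (11.1%), 2 (20%) and 0, against 12.4%. A match describes letters, not a bound site, and these shares were neither tested nor matched for base composition.

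Below are the 180 bases before the start of 3 sterol enzymes, of Insig1 and of Fasn, each called lower in at least 1 mutant, written 5′ to 3′ on the gene's strand. Other called members with a window are not shown. Among them Dhcr7, Mvd, Mvk and Nsdhl held no CACNCCAC in the bases searched. Capitals mark CCAAT or its reverse complement ATTGG, CACNCCAC and CACGTG on either strand.
Hmgcs1 (chr13:119690171-119690350, plus strand): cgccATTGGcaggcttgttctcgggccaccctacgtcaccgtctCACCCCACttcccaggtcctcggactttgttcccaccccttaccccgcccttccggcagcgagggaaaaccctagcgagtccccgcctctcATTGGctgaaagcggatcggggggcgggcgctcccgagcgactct
Msmo1 (chr8:64733579-64733758, minus strand): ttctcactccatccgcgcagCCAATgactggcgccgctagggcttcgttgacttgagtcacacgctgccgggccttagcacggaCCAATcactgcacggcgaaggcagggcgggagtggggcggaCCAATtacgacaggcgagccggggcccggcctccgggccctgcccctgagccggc
Cyp51 (chr5:4104698-4104877, minus strand): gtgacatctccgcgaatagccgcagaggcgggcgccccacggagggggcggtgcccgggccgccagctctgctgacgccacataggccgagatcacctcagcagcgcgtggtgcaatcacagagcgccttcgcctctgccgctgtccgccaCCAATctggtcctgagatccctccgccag
Insig1 (chr5:28071232-28071411, plus strand): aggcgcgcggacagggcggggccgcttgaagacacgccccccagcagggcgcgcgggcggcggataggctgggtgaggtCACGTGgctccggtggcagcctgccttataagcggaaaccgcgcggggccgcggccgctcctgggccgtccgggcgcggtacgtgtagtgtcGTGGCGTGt
Fasn (chr11:120824548-120824727, minus strand): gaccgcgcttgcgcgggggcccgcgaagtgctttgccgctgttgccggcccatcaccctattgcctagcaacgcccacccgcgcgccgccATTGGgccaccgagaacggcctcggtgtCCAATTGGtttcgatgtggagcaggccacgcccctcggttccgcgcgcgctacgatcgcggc
Msmo1 held 3 CCAAT boxes in this stretch and Cyp51 held 1. Hmgcs1 held CCAAT boxes on the minus strand and a sterol regulatory core between them. Insig1 had an E-box and, close to the start, the sterol regulatory core on the minus strand. In Fasn, a CCAAT on the plus strand overlapped another on the minus strand.

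In Yy1 mutants the sterol enzymes lay below the controls almost throughout: 6 of the 16 measured fell, 0 rose, and 10 were not called. At an unadjusted p under 0.05, limma gave 11 lower and 0 higher. Over all genes 3.84% were called lower and 2.77% higher in this comparison. The median difference of the 16 enzymes was -0.24, against 0.00161 over all genes, and 15 of the 16 differences were below 0. The 6 that fell were Sqle, Cyp51, Msmo1, Dhcr7, Fdft1 and Hmgcs1, which stand at the entry of the pathway, at squalene and at the late sterol steps. For 10 of the 16 every Yy1 mutant array was below every control array, against 7.05% of all genes.

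In Dicer mutants 9 of the 16 sterol enzymes fell, 0 rose and 7 were not called, where 3.97% of all genes were called lower and 4.78% higher. At an unadjusted p under 0.05, limma gave 14 lower and 0 higher. The 9 were Sqle, Msmo1, Mvd, Hmgcs1, Fdft1, Dhcr7, Nsdhl, Cyp51 and Mvk, which span the pathway from its entry to its last step. The median difference was -0.34, against -0.03 over all genes. For 13 of the 16 the Dicer mutant arrays all lay below the controls, against 8.45% of all genes. Both comparisons use the same 4 control arrays, so a control array that reads high lowers both mutants at once.

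**Figure D1:**
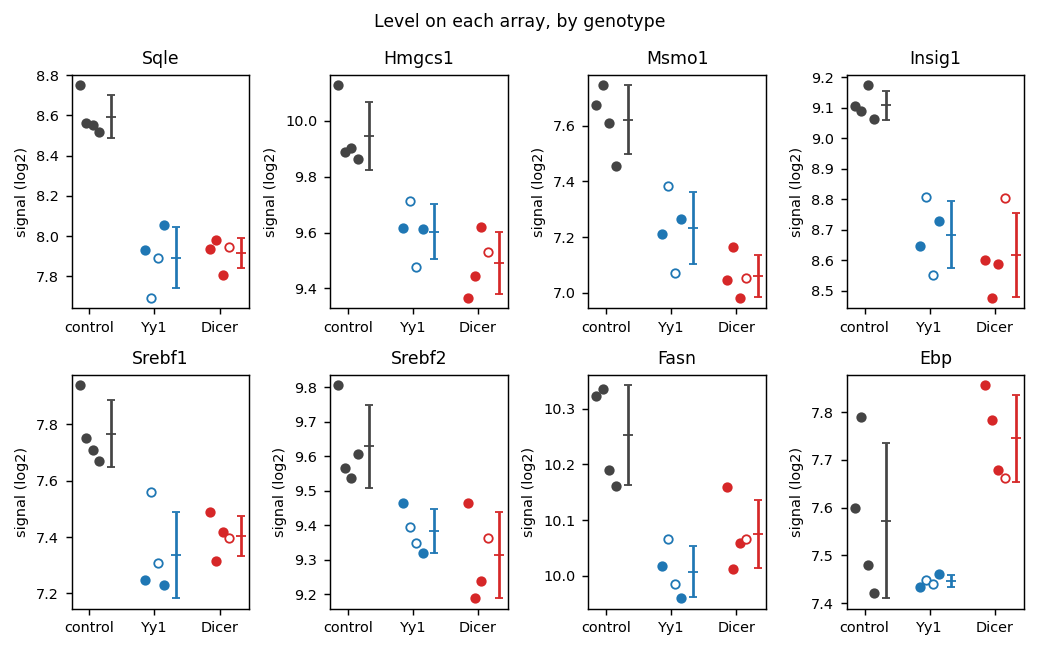
Log2 level on each array (points, 4 per genotype) with the mean and SD of the genotype (bars) for Sqle, Hmgcs1, Msmo1, Insig1, Srebf1, Srebf2, Fasn and Ebp. Open symbols are the 3 Y-signal arrays (Yy1 mutant 2, Yy1 mutant 3 and Dicer mutant 4). For Sqle the 4 controls sit between 8.52 and 8.75 and all 8 mutant arrays between 7.69 and 8.05.

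Squalene epoxidase, Sqle, which adds the oxygen that makes squalene ready for ring closure, had the largest difference of the 31 members in both mutants. Its level was 8.75, 8.56, 8.55 and 8.52 on the 4 control arrays, 7.93, 7.69, 7.89 and 8.05 on the Yy1 mutant arrays, and 7.94, 7.98, 7.81 and 7.94 on the Dicer mutant arrays. Every mutant array was below every control array, and the 2 mutant groups overlapped. The difference was -0.70 in Yy1 mutants (SE 0.0835, limma adjusted p = 0.000191), a 1.63-fold lower signal, and -0.68 in Dicer mutants (SE 0.0835, limma adjusted p = 0.000214), 1.60-fold lower. Both calls were kept in all 20 alternative settings.

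Farnesyl-diphosphate farnesyltransferase, Fdft1, makes the squalene that Sqle takes. It read 9.51, 9.71, 9.47 and 9.41 in controls, 9.10, 9.33, 9.15 and 9.10 in the Yy1 mutants and 9.03, 9.13, 9.11 and 9.10 in the Dicer mutants. No mutant array reached the lowest control. The differences were -0.36 (SE 0.0778, limma adjusted p = 0.0134) and -0.43 (SE 0.0778, limma adjusted p = 0.00338), and both calls were kept in all 20 settings. Lanosterol synthase, Lss, which closes the rings after Sqle, was not called in either mutant: the differences were -0.18 (limma adjusted p = 0.492) and -0.38 (limma adjusted p = 0.0852). Its Yy1 mutant arrays ran from 7.11 to 7.69 and overlapped the controls at 7.42 to 7.86, while its Dicer mutant arrays ran from 7.01 to 7.30, below every control.

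At the entry to the pathway, Hmgcs1 joins acetyl-CoA to acetoacetyl-CoA. It read 10.13, 9.89, 9.90 and 9.86 in controls, 9.61, 9.71, 9.48 and 9.61 in the Yy1 mutants and 9.37, 9.45, 9.62 and 9.53 in the Dicer mutants. Control 1 stood above the other controls, and all mutant arrays were below all controls. The difference was -0.45 in Dicer mutants (SE 0.0815, limma adjusted p = 0.00331), a call kept in all 20 settings. In Yy1 mutants it was -0.34 (SE 0.0815, limma adjusted p = 0.0219), and that call ended without control 1 (0.0629), Yy1 mutant 1 (0.0525) or Yy1 mutant 3 (0.0762), and without the 3 Y-signal arrays (0.146), all adjusted p.

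The mevalonate steps that follow differed less evenly. Mevalonate kinase, Mvk, read 7.68, 7.78, 7.69 and 7.52 in controls, 7.34, 7.45, 7.46 and 7.48 in the Yy1 mutants and 7.33, 7.47, 7.39 and 7.37 in the Dicer mutants. It fell in Dicer mutants by 0.28 on the log2 scale (SE 0.0687, limma adjusted p = 0.0214), and the difference of -0.24 in Yy1 mutants was not called (limma adjusted p = 0.0576). The Mvk call in Dicer mutants ended without control 1, 2 or 3 or Dicer mutant 1, 3 or 4 (adjusted p from 0.0506 to 0.064), and without the 3 Y-signal arrays (0.109). Mevalonate diphosphate decarboxylase, Mvd, read 7.71, 7.52, 7.40 and 7.27 in controls and 7.17, 6.98, 6.83 and 7.05 in Dicer mutants, which did not overlap. Its difference in Dicer mutants was -0.47 (SE 0.0963, limma adjusted p = 0.00795), kept in all 20 settings, and in Yy1 mutants -0.28 (limma adjusted p = 0.11), with arrays at 7.09, 7.22, 7.21 and 7.25. The enzyme between them, Pmvk, differed by -0.01 in Yy1 mutants (limma adjusted p = 0.955) and by -0.15 in Dicer mutants (limma adjusted p = 0.143). Farnesyl diphosphate synthase, Fdps, differed by -0.23 (limma adjusted p = 0.238) and -0.35 (limma adjusted p = 0.0554), with controls spread from 7.76 to 8.25.

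After ring closure, lanosterol loses its extra methyl groups through Cyp51, Msmo1, Nsdhl and Hsd17b7. Msmo1, the C4-methylsterol oxidase, read 7.67, 7.74, 7.61 and 7.46 in controls, 7.21, 7.38, 7.07 and 7.27 in the Yy1 mutants and 7.05, 7.17, 6.98 and 7.05 in the Dicer mutants. All mutant arrays were below all controls. The differences were -0.39 (SE 0.0825, limma adjusted p = 0.0114) and -0.56 (SE 0.0825, limma adjusted p = 0.000847). The Dicer mutant call was kept in all 20 settings. The Yy1 mutant call ended only without the 3 Y-signal arrays, where the difference was -0.38 (SE 0.0994, limma adjusted p = 0.0806).

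Cyp51, the lanosterol demethylase, read 8.01, 7.75, 8.05 and 7.74 in controls, 7.65, 7.30, 7.50 and 7.53 in the Yy1 mutants and 7.51, 7.66, 7.60 and 7.51 in the Dicer mutants. The controls formed a high pair and a low pair, and the mutants lay below both. The differences were -0.40 (SE 0.0926, limma adjusted p = 0.02) and -0.32 (SE 0.0926, limma adjusted p = 0.0495), and both calls were unsteady. In Yy1 mutants the call ended without control 1 (0.0642), control 3 (0.0636), Yy1 mutant 2 (0.0523) or Yy1 mutant 3 (0.0501), and without the 3 Y-signal arrays (0.223). In Dicer mutants it ended in 13 of 20 settings, among them without control 1 (0.133), control 3 (0.139), Yy1 mutant 3 (0.0688), Yy1 mutant 4 (0.0628) or any 1 Dicer mutant array (0.0675 to 0.13), and without the 3 Y-signal arrays (0.133), all adjusted p.

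Nsdhl, the sterol dehydrogenase that acts after Msmo1, read 8.86, 8.93, 8.76 and 8.74 in controls, 8.54, 8.62, 8.65 and 8.58 in the Yy1 mutants and 8.60, 8.53, 8.36 and 8.47 in the Dicer mutants. It fell in Dicer mutants (-0.33, SE 0.0694, limma adjusted p = 0.00835), and this call ended only without the 3 Y-signal arrays (limma adjusted p = 0.0571). The difference in Yy1 mutants, -0.23, was not called (limma adjusted p = 0.0755), although the arrays did not overlap. Its partner Hsd17b7 was not called in either: -0.14 (limma adjusted p = 0.641) and -0.31 (limma adjusted p = 0.172), with controls spread from 6.95 to 7.59.

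Dhcr7, which makes cholesterol from 7-dehydrocholesterol, read 8.75, 8.61, 8.68 and 8.66 in controls, 8.38, 8.17, 8.35 and 8.31 in the Yy1 mutants and 8.28, 8.23, 8.30 and 8.33 in the Dicer mutants. The groups did not overlap with the controls. The differences were -0.37 (SE 0.064, limma adjusted p = 0.00286) and -0.39 (SE 0.064, limma adjusted p = 0.00189). The Yy1 mutant call ended only without the 3 Y-signal arrays (limma adjusted p = 0.0577), and the Dicer mutant call was kept in all 20 settings. Sc5d, the desaturase just before it, differed by -0.25 in Yy1 mutants (limma adjusted p = 0.0656), where the arrays at 7.79 to 7.98 lay below the controls at 8.04 to 8.31, and by -0.15 in Dicer mutants (limma adjusted p = 0.25). Tm7sf2, a sterol C14 reductase, differed by 0.05 in Yy1 mutants (limma adjusted p = 0.812) and by -0.23 in Dicer mutants (limma adjusted p = 0.104). It was the only 1 of the 16 above 0 in Yy1 mutants, and lay at -0.00702 without the 3 Y-signal arrays.

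Ebp, the isomerase that shifts a double bond of the sterol ring, was the only 1 of the 16 above 0 in Dicer mutants. It read 7.60, 7.79, 7.48 and 7.42 in controls, 7.43, 7.45, 7.44 and 7.46 in the Yy1 mutants and 7.86, 7.78, 7.68 and 7.66 in the Dicer mutants. The Yy1 mutant arrays lay at the low end of the controls and the Dicer mutant arrays at the high end. Neither mutant was called against controls (-0.13, limma adjusted p = 0.439, and 0.17, limma adjusted p = 0.225).

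**Figure D2:**
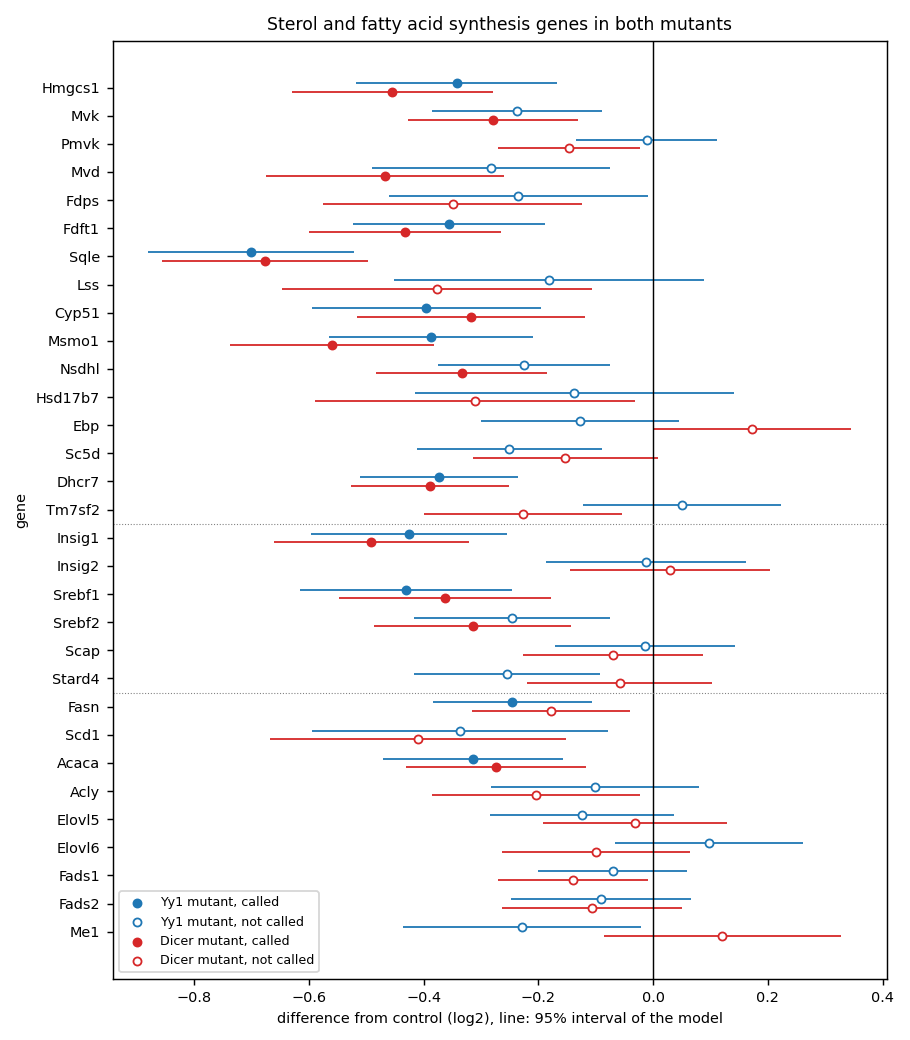
Log2 difference from control with its 95% interval (lines) for all 31 measured members, in Yy1 mutants and in Dicer mutants, ordered by list. Filled points were called at an adjusted p under 0.05 and open points were not: 10 members in Yy1 mutants and 13 in Dicer mutants, all to the left of 0.

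Among the regulators and transport genes, Insig1 and Srebf1 fell in both mutants and Srebf2 in Dicer mutants. Of the 6 genes, 2 were called lower in Yy1 mutants and 3 in Dicer mutants (against 3.84% and 3.97% called lower among all genes), and 0 were called higher by limma in either (4 and 3 lower, 0 and 0 higher at an unadjusted p under 0.05). The median differences were -0.25 and -0.19. Insig1, which retains the Scap complex in the endoplasmic reticulum and is itself an Srebp target, read 9.11, 9.09, 9.17 and 9.06 in controls, 8.65, 8.81, 8.55 and 8.73 in the Yy1 mutants and 8.60, 8.48, 8.59 and 8.81 in the Dicer mutants. The controls lay within a narrow band and no mutant array reached it. The differences were -0.43 (SE 0.0791, limma adjusted p = 0.00487), a 1.34-fold lower signal, and -0.49 (SE 0.0791, limma adjusted p = 0.00162), 1.41-fold lower, both kept in all 20 settings. Its paralogue Insig2, at 6.81 to 7.02 in Yy1 mutants and 6.93 to 7.11 in Dicer mutants, overlapped the controls at 6.84 to 7.15 and was not called, with differences of -0.01 and 0.03.

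Srebf1, which encodes Srebp1, read 7.94, 7.75, 7.71 and 7.67 in controls, 7.25, 7.56, 7.31 and 7.23 in the Yy1 mutants and 7.49, 7.32, 7.42 and 7.40 in the Dicer mutants. Neither mutant overlapped the controls. It differed by -0.43 in Yy1 mutants (SE 0.0858, limma adjusted p = 0.00761), kept in all 20 settings, and by -0.36 in Dicer mutants (SE 0.0858, limma adjusted p = 0.0176), a call that ended without control 1 (0.0535) or Dicer mutant 2 (0.0579), both adjusted p. Srebf2, which encodes Srebp2, read 9.80, 9.57, 9.54 and 9.61 in controls, 9.47, 9.39, 9.35 and 9.32 in the Yy1 mutants and 9.47, 9.19, 9.24 and 9.36 in the Dicer mutants. All mutant arrays were below all controls. The difference was -0.31 in Dicer mutants (SE 0.0797, limma adjusted p = 0.0252), and the call ended without control 1 (0.0716), Dicer mutant 2 (0.0829), 3 (0.0759) or 4 (0.0505), and without the 3 Y-signal arrays (0.0939). In Yy1 mutants the difference of -0.25 was not called (limma adjusted p = 0.092). Scap, the escort protein, differed by -0.01 and -0.07 and was not called. Stard4, which carries cholesterol between membranes, read 7.44, 7.75, 7.56 and 7.49 in Yy1 mutants against 7.72 to 7.90 in controls, a difference of -0.25 that was not called (limma adjusted p = 0.063), and -0.06 in Dicer mutants (limma adjusted p = 0.714).

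Of the 9 fatty acid synthesis genes, Fasn and Acaca fell in Yy1 mutants and Acaca in Dicer mutants, while 7 and 8 were not called and 0 rose. Over all genes, 3.84% were called lower in Yy1 mutants and 3.97% in Dicer mutants. At an unadjusted p under 0.05, limma gave 4 and 5 lower and 0 higher in either. The median differences were -0.12 and -0.14, and 8 of 9 were below 0 in each mutant. Arrays did not overlap with the controls, on the lower side, for 2 genes in Yy1 mutants and for 3 in Dicer mutants, against 7.05% and 8.45% of all genes.

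Acaca, the cytosolic acetyl-CoA carboxylase that makes malonyl-CoA, read 8.61, 8.58, 8.37 and 8.43 in controls, 8.29, 8.16, 8.18 and 8.10 in the Yy1 mutants and 8.14, 8.22, 8.30 and 8.23 in the Dicer mutants. The differences were -0.31 (SE 0.0729, limma adjusted p = 0.0193) and -0.27 (SE 0.0729, limma adjusted p = 0.0322). In Yy1 mutants the call ended without control 1 (0.0591), control 2 (0.0507), Yy1 mutant 3 (0.0527) or Yy1 mutant 4 (0.0606), and without the 3 Y-signal arrays (0.185). In Dicer mutants it ended without control 1 (0.0904), control 2 (0.0718), Dicer mutant 1 (0.0762), 2 (0.0768) or 4 (0.0763), and without the 3 arrays (0.128), all adjusted p.

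Fasn, the fatty acid synthase that turns malonyl-CoA into palmitate, read 10.32, 10.34, 10.19 and 10.16 in controls, 10.02, 10.07, 9.98 and 9.96 in the Yy1 mutants and 10.16, 10.01, 10.06 and 10.07 in the Dicer mutants. The Yy1 mutants lay below every control, and Dicer mutant 1 came close to the lowest control. The difference was -0.25 in Yy1 mutants (SE 0.0641, limma adjusted p = 0.0356) and -0.18 in Dicer mutants, not called (limma adjusted p = 0.111). The Yy1 mutant call was kept in 10 of 20 settings. It ended without control 1 (0.0962), control 2 (0.0836), Yy1 mutant 1 (0.0818), 3 (0.0954) or 4 (0.0941), or Dicer mutant 3 (0.0525) or 4 (0.0565), and without the 3 Y-signal arrays (0.177), all adjusted p.

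Scd1, which desaturates stearate, had the largest difference of the fatty acid genes in both mutants, -0.34 and -0.41, and was called in neither (limma adjusted p = 0.129 and 0.0505). Its controls were spread, at 6.70, 6.55, 6.23 and 6.20, against 6.03, 6.21, 6.13 and 5.96 in Yy1 mutants and 5.85, 6.27, 6.03 and 5.90 in Dicer mutants. Both mutant groups overlapped the lower controls. Acly, which supplies cytosolic acetyl-CoA to both routes, differed by -0.10 in Yy1 mutants and by -0.20 in Dicer mutants (limma adjusted p = 0.167), where its arrays at 9.59 to 9.69 lay below the controls at 9.72 to 10.10. The desaturases Fads1 and Fads2 differed by -0.07 and -0.09 in Yy1 mutants and by -0.14 and -0.11 in Dicer mutants, and the elongase Elovl5 by -0.12 and -0.03. The elongase Elovl6 differed by 0.10 and -0.10, the only fatty acid gene above 0 in Yy1 mutants. Malic enzyme, Me1, a source of NADPH for synthesis, differed by -0.23 (limma adjusted p = 0.204) and by 0.12 (limma adjusted p = 0.513), the only one above 0 in Dicer mutants.

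Set side by side, 6 of 16 sterol enzymes and 2 of 9 fatty acid genes were called lower in Yy1 mutants, and 9 of 16 and 1 of 9 in Dicer mutants. The medians were -0.24 and -0.12 in Yy1 mutants and -0.34 and -0.14 in Dicer mutants. To follow the lists on single arrays, each gene's difference from its control mean was taken and the median over the list was read on each array. For the sterol enzymes it ran from -0.14 to 0.07 in controls, -0.30 to -0.21 in the Yy1 mutants and -0.36 to -0.32 in the Dicer mutants. For the fatty acid genes it ran from -0.09 to 0.11 in controls, -0.21 to -0.08 in the Yy1 mutants and -0.18 to -0.10 in the Dicer mutants, and Yy1 mutant 3 lay inside the controls' range. The sterol median minus the fatty acid median was -0.22 to -0.17 on the Dicer mutant arrays, -0.22 to -0.03 on the Yy1 mutant arrays and -0.05 to 0.04 on the controls. These are descriptions of lists chosen with results of these data known, and the difference between the lists was not tested. Without the 3 Y-signal arrays, the sterol enzymes called lower were 2 of 16 in Yy1 mutants and 6 of 16 in Dicer mutants, the fatty acid genes 0 of 9 in each, the sterol medians -0.27 and -0.32, and the fatty acid medians -0.19 and -0.14. In Yy1 mutants the medians of both lists then lay closer together. Fewer arrays then stood in each mutant group, and how many of the lost calls come from that was not tested.

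**Figure D3:**
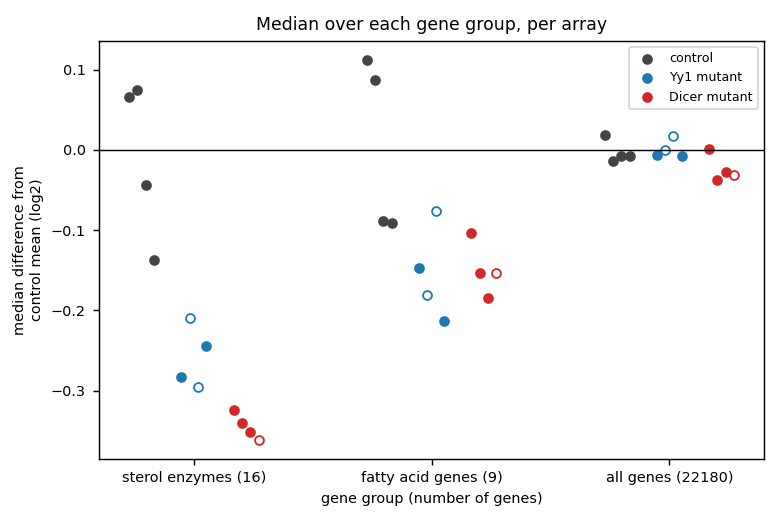
Median over each list of the log2 difference from the control mean, on each of the 12 arrays (points), for the 16 sterol synthesis enzymes, the 9 fatty acid synthesis genes and all 22180 genes. Open symbols are the 3 Y-signal arrays. The sterol enzymes separate both mutants from the controls (at most -0.21 against at least -0.14), while the fatty acid genes on Yy1 mutant 3 (-0.08) lie within the controls' range.

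**Figure D4:**
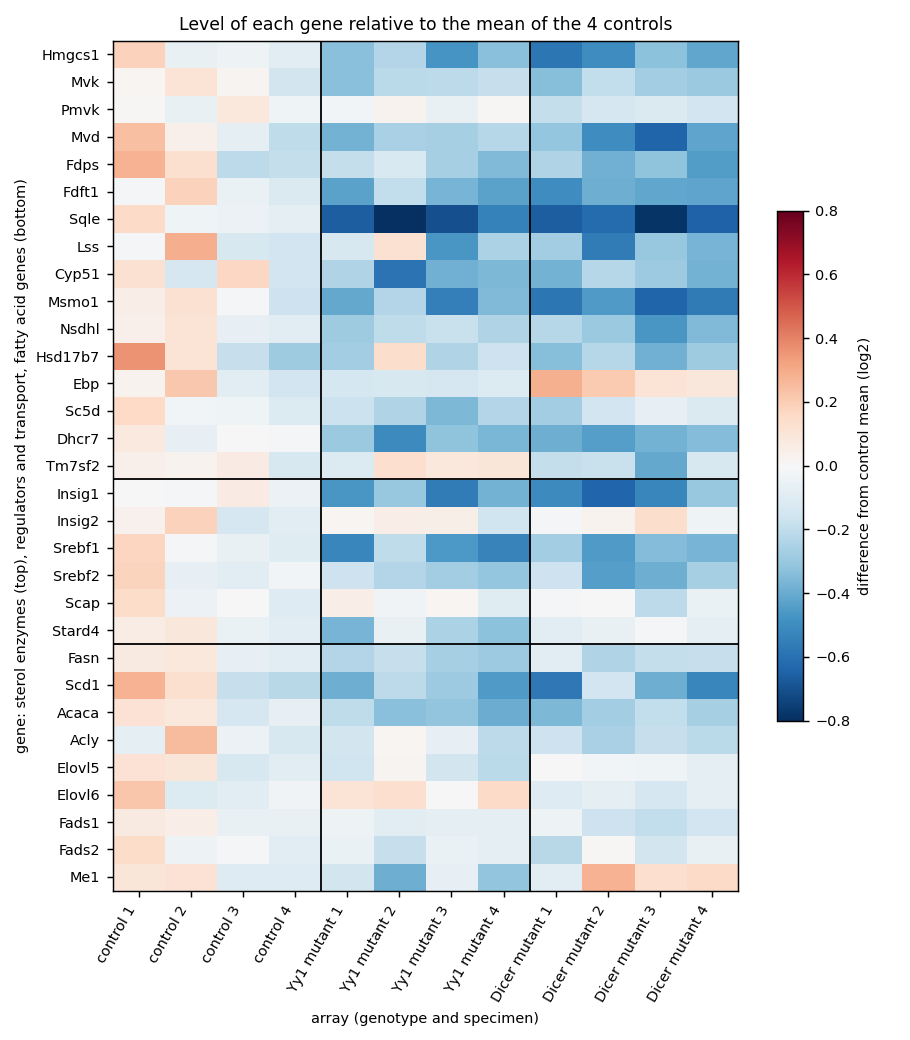
Each measured member (rows, grouped by list) on each of the 12 arrays (columns, grouped by genotype), coloured by its log2 difference from the control mean. The mutant columns are mostly on the lower side among the sterol enzymes. Exceptions there are Ebp in Dicer mutants and Tm7sf2 in Yy1 mutants. The fatty acid rows are mostly on the lower side too, with a smaller median difference. Among them Elovl6 in Yy1 mutants and Me1 in Dicer mutants are on the other side.

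The mutants were then compared with each other. Of the 31 members, 1 was called: Ebp was higher in Dicer than in Yy1 mutants by 0.30 (SE 0.0803, limma adjusted p = 0.0486). Among all genes 3.39% were called higher and 1.57% lower in Dicer mutants, so 1 of 31 lies near the background. The arrays did not overlap, at 7.66 to 7.86 against 7.43 to 7.46, as for 7.19% of all genes. This call ended in 12 of 20 settings, among them without control 1 (0.061), control 3 (0.0596) or any 1 of the Yy1 mutant (0.085 to 0.113) or Dicer mutant arrays (0.071 to 0.119), and without the 3 Y-signal arrays (0.256), all adjusted p. Limma called 0 members lower (3 at an unadjusted p under 0.05). Me1, at 7.89 to 8.21 in Yy1 mutants and 8.20 to 8.56 in Dicer mutants, came next with 0.35 (95% interval 0.14 to 0.56, limma adjusted p = 0.0545), and Tm7sf2 followed with -0.28 (95% interval -0.45 to -0.10, limma adjusted p = 0.0689). For Sqle the difference between the mutants was 0.02 (95% interval -0.16 to 0.20), for Dhcr7 -0.01 (-0.15 to 0.12), for Insig1 -0.07 (-0.24 to 0.10), for Fasn 0.07 (-0.07 to 0.21) and for Msmo1 -0.17 (-0.35 to 0.01). A p that missed the threshold does not show that the mutants were alike, and the intervals give the precision of each difference. The median over the sterol enzymes was -0.11, over the regulators -0.01 and over the fatty acid genes -0.01, against -0.03 over all genes.

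Genes that export, take up or sense sterol were read beside the synthesis genes. Of 17 measured of 21 listed, 3 rose and 2 fell in Yy1 mutants, and 6 rose and 0 fell in Dicer mutants (limma, 3 lower at an unadjusted p under 0.05). Among all genes, 2.77% rose and 3.84% fell in Yy1 mutants, and 4.78% rose and 3.97% fell in Dicer mutants. The medians were -0.00076 and 0.03. Abca1, the cholesterol efflux pump, read 8.62, 8.55, 8.60 and 8.60 in controls, 9.14, 9.26, 9.06 and 9.06 in the Yy1 mutants and 9.13, 9.15, 9.10 and 9.25 in the Dicer mutants. All 8 mutant arrays stood above the controls, opposite to Sqle. The differences were 0.54 (SE 0.0644, limma adjusted p = 0.000194) and 0.56 (SE 0.0644, limma adjusted p = 0.000121), a 1.45-fold and a 1.48-fold higher signal, kept in all 20 settings.

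Apoe, the lipoprotein that accepts the exported sterol and a product of macrophages among other cells, read 7.30, 7.85, 7.49 and 7.33 in controls, 8.16, 8.36, 8.12 and 7.96 in the Yy1 mutants and 9.23, 8.89, 8.60 and 9.10 in the Dicer mutants. The 3 groups did not overlap. The differences were 0.66 (SE 0.145, limma adjusted p = 0.0135) and 1.46 (SE 0.145, limma adjusted p = 3.46e-05), and the first call ended without the 3 Y-signal arrays (limma adjusted p = 0.162). Between the mutants Apoe differed by 0.80 (SE 0.145, limma adjusted p = 0.00485), also not called without those 3 arrays (limma adjusted p = 0.0619). By group, the macrophage markers moved in the same order. Their summed signal was 10.7 to 10.8 in controls, 11.1 to 11.4 in the Yy1 mutants and 11.3 to 11.6 in the Dicer mutants. Within the Dicer mutants the order differed, as Dicer mutant 1 had the highest Apoe and the lowest macrophage sum. In the Yy1 mutants the highest and the lowest array were the same for both. Summed liver markers ran from 8.79 to 9.07 in controls, 8.83 to 9.01 in the Yy1 mutants and 8.85 to 9.57 in the Dicer mutants. The part of either cell type in the Apoe result was not tested. Mylip, an E3 ligase that removes lipoprotein receptors, read 7.34 to 7.62 in controls, 7.65 to 8.0 in the Yy1 mutants and 7.77 to 8.10 in the Dicer mutants (0.36, limma adjusted p = 0.0448, and 0.53, limma adjusted p = 0.00431). The call in Dicer mutants was kept in all 20 settings. The one in Yy1 mutants ended in 11, among them without control 1, 3 or 4, Yy1 mutant 1, 2 or 3, or Dicer mutant 3 or 4 (adjusted p from 0.054 to 0.124), and without the 3 Y-signal arrays (0.229). Abca1 and Mylip are known targets of the liver X receptors, which sense oxysterols. These 2 genes do not stand for all targets of those receptors, and receptor activity was not measured. Nr1h3, a liver X receptor gene of this list, was called higher in Dicer mutants and not called in Yy1 mutants. Its call ended in 5 of 20 settings, among them without the 3 Y-signal arrays (limma adjusted p = 0.0754).

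Npc1, which moves cholesterol out of lysosomes, read 8.72, 8.77, 8.74 and 8.75 in controls, 9.05, 8.76, 8.89 and 8.75 in the Yy1 mutants and 9.27, 9.29, 9.45 and 9.43 in the Dicer mutants. Only the Dicer mutants stood apart from the controls. It rose in Dicer mutants by 0.62 (SE 0.0764, limma adjusted p = 0.000229), differed by 0.11 in Yy1 mutants (limma adjusted p = 0.471), and was higher in Dicer than in Yy1 mutants by 0.50 (SE 0.0764, limma adjusted p = 0.00158). That last call ended without the 3 Y-signal arrays (limma adjusted p = 0.0734). Npc2, its luminal partner, read 9.95 to 10.03 in controls and 9.43 to 9.70 in Yy1 mutants, where it fell by 0.37 on the log2 scale (limma adjusted p = 0.00386), kept in all 20 settings. Scarb1, the receptor that takes sterol from high density lipoprotein, fell in Yy1 mutants (-0.27, limma adjusted p = 0.0393) and was higher in Dicer than in Yy1 mutants (0.31, limma adjusted p = 0.0271). The Yy1 mutant call ended in 11 of 20 settings, among them without control 1, 2 or 3, Yy1 mutant 1, 3 or 4, or Dicer mutant 2, 3 or 4 (adjusted p from 0.0522 to 0.113), and without the 3 Y-signal arrays (0.146). The call between the mutants ended in 7, among them without Yy1 mutant 3 or 4 or any 1 Dicer mutant (adjusted p from 0.0562 to 0.0868), and without the 3 Y-signal arrays (0.149). Vldlr, a receptor for lipoproteins rich in triglyceride, was higher in Dicer than in Yy1 mutants by 0.56 (limma adjusted p = 0.00417), kept in all 20 settings.

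**Figure D5:**
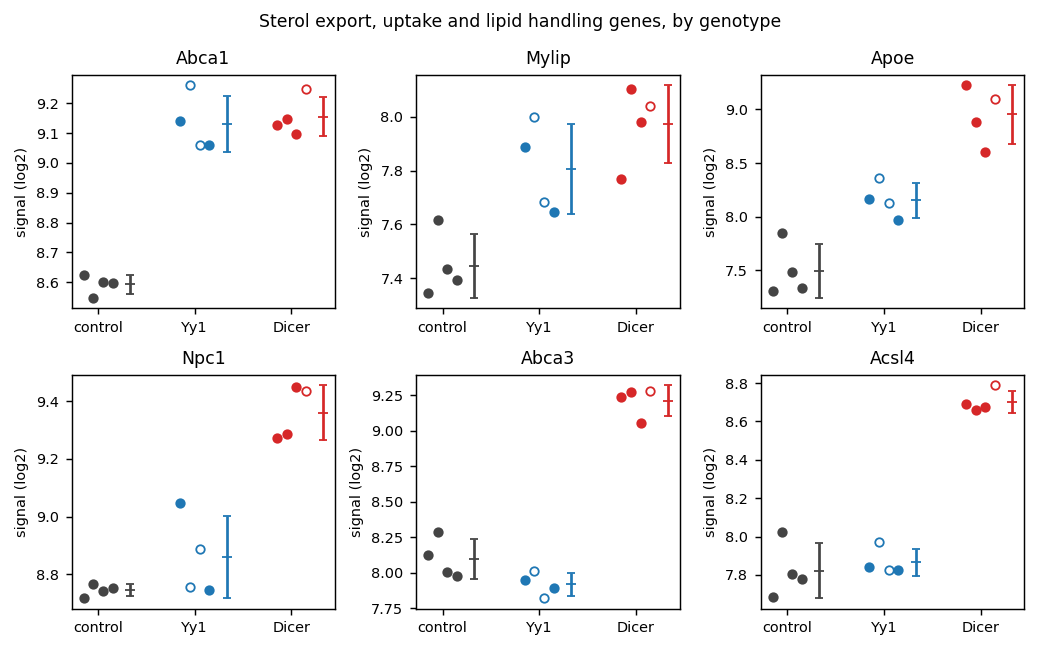
Log2 level on each array (points) with the mean and SD of each genotype (bars) for Abca1, Mylip, Apoe, Npc1, Abca3 and Acsl4. Open symbols are the 3 Y-signal arrays. Abca1 is at 8.55 to 8.62 in controls and 9.06 to 9.26 on the 8 mutant arrays, while Npc1 is at 9.27 to 9.45 on the 4 Dicer mutant arrays and at 8.75 to 9.05 in Yy1 mutants.

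An intron-borne microRNA links this group to the members by position. The hairpin of miR-33 lies inside Srebf2 in the RefSeq annotation, and miR-33 is known to repress Abca1 and Npc1, and Crot and Cpt1a of fatty acid oxidation. Its mature form is shown with the seed, bases 2 to 8, in capitals.
mmu-miR-33-5p (chr15:82198127-82198147, plus strand, GRCm38.p6): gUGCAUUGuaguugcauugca
Mature microRNAs were not measured on these arrays. The probe set for the Mir33 gene read 3.44 ± 0.19 in controls, 3.20 ± 0.20 in the Yy1 mutants and 3.17 ± 0.22 in the Dicer mutants (SD, n = 4 each), and was not called (limma adjusted p = 0.337 and 0.236). These levels lie far below the median of all genes, 6.48, where signal may not be told from background. They do not show that Mir33 was unchanged. Of its named targets, Abca1 rose in both mutants, Npc1 and Crot rose in Dicer mutants (0.62, and 0.25 with limma adjusted p = 0.0228), and Cpt1a rose in Yy1 mutants (0.38, limma adjusted p = 0.044). Not called were Npc1 in Yy1 mutants (0.11, limma adjusted p = 0.471), Crot in Yy1 mutants (0.22, limma adjusted p = 0.0604) and Cpt1a in Dicer mutants (0.33, limma adjusted p = 0.069). These genes were chosen with results of these data known and do not stand for all targets of miR-33. A part of miR-33 in their levels was not tested. The Crot call ended in 9 of 20 settings, among them without control 3 or 4 or Dicer mutant 2, 3 or 4 (adjusted p from 0.0602 to 0.0733), and without the 3 Y-signal arrays (0.122). The Cpt1a call ended in 12, among them without control 1, 3 or 4, any 1 Yy1 mutant array, or Dicer mutant 3 or 4 (0.0538 to 0.124), and without the 3 Y-signal arrays (0.255).

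Other lists gave the surroundings of the 2 routes. Of 12 measured of 18 further Srebp2-type genes, 1 fell in Yy1 mutants, and 1 fell and 1 rose in Dicer mutants, with medians of 0.01 and 0.01. Of all genes, 3.84% were called lower in Yy1 mutants, and 3.97% lower and 4.78% higher in Dicer mutants, so 1 of 12 lies near the background. Aacs, which activates acetoacetate for lipid synthesis, read 7.60, 7.55, 7.53 and 7.61 in controls, 7.27, 7.44, 7.39 and 7.23 in the Yy1 mutants and 7.11, 7.25, 7.07 and 7.15 in the Dicer mutants. Both mutants lay below the controls, with differences of -0.24 (limma adjusted p = 0.0487) and -0.43 (limma adjusted p = 0.00137). The second call was kept in all 20 settings. The first ended in 13, among them without any 1 control, Yy1 mutant 1, 3 or 4, or Dicer mutant 1, 3 or 4 (adjusted p from 0.0591 to 0.137), and without the 3 Y-signal arrays (0.0767). Erlin1, an endoplasmic reticulum protein that takes part in the turnover of the sterol machinery, rose in Dicer mutants by 0.55 (SE 0.0712, limma adjusted p = 0.000336), from 7.41 to 7.63 in controls to 8.06 to 8.18.

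Of 29 measured of 32 further lipogenic genes, 1 rose and 5 fell in Yy1 mutants, and 1 rose and 3 fell in Dicer mutants, with medians of -0.03 in each. The shares of all genes called were 2.77% higher and 3.84% lower in Yy1 mutants and 4.78% higher and 3.97% lower in Dicer mutants, so 1 of 29 higher lies near the background in each. Elovl7, an elongase, read 6.26 to 6.72 in controls, 5.62, 6.0, 5.76 and 5.76 in the Yy1 mutants and 6.56 to 6.80 in the Dicer mutants. Only the Yy1 mutants lay below the controls (-0.72, SE 0.103, limma adjusted p = 0.00073), and the mutants differed from each other by 0.88 (limma adjusted p = 0.00021). Acsl4, which activates arachidonate, read 7.68 to 8.02 in controls, 7.82 to 7.97 in the Yy1 mutants and 8.69, 8.66, 8.67 and 8.79 in the Dicer mutants. It rose in Dicer mutants by 0.88 (SE 0.0762, limma adjusted p = 1.42e-05) and was higher there than in Yy1 mutants by 0.84 (limma adjusted p = 3.16e-05). Elovl4, which makes very long chains, fell in Dicer mutants (-0.32, limma adjusted p = 0.0073) and was lower there than in Yy1 mutants (-0.42, limma adjusted p = 0.00167), both kept in all 20 settings. Acsl5, another acyl-CoA synthetase, fell in Yy1 mutants (-0.42, limma adjusted p = 0.0142), a call that ended only without the 3 Y-signal arrays (limma adjusted p = 0.124). Its difference between the mutants (0.35, limma adjusted p = 0.0472) ended in 12 of 20 settings, among them without control 1 or 3 or any 1 mutant array (adjusted p from 0.061 to 0.14), and without the 3 Y-signal arrays (0.295).

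Acacb, the mitochondrial counterpart of Acaca, rose in Yy1 mutants (0.32, limma adjusted p = 0.0205), opposite in direction to Acaca. That call ended without control 1 or 4 or Yy1 mutant 1 or 3 (adjusted p from 0.0512 to 0.0677), with equal array medians (0.0537), and without the 3 Y-signal arrays (0.188). Fads3, a relative of Fads1 and Fads2, fell in both mutants (-0.35, limma adjusted p = 0.0174, and -0.30, limma adjusted p = 0.0345). In Yy1 mutants its call ended without Yy1 mutant 4 (0.0537), and in Dicer mutants without control 2, 3 or 4, Yy1 mutant 3 or any 1 Dicer mutant (0.0501 to 0.0876) and without the 3 Y-signal arrays (0.101). Mid1ip1, an activator of acetyl-CoA carboxylase, fell in Dicer mutants (-0.36, limma adjusted p = 0.0189). That call ended without control 1 (0.0585) or Dicer mutant 3 (0.0621), and when its probe sets were averaged (0.0645). Mid1ip1 was also called lower in Yy1 mutants (-0.34), a call that ended in 7 of 20 settings. With its probe sets averaged, the difference in Yy1 mutants was -0.09 (limma adjusted p = 0.614).

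Of 10 measured of 12 surfactant lipid genes, 0 were called by limma in Yy1 mutants (1 higher and 5 lower at an unadjusted p under 0.05), and 4 rose in Dicer mutants, where 4.78% of all genes were called higher. Abca3, the transporter that loads phospholipid into lamellar bodies, read 8.12, 8.29, 8.0 and 7.98 in controls, 7.95, 8.01, 7.82 and 7.89 in the Yy1 mutants and 9.23, 9.27, 9.05 and 9.28 in the Dicer mutants. The Dicer mutants stood clear of both other groups, by 1.11 over controls (SE 0.0825, limma adjusted p = 4.15e-06) and by 1.29 over Yy1 mutants (limma adjusted p = 1.08e-06), with both calls kept in all 20 settings. Plin2, a lipid droplet coat protein, and the lysophosphatidylcholine acyltransferases Lpcat1 and Lpcat2 rose in Dicer mutants by 0.44, 0.31 and 0.40 (limma adjusted p = 0.00763, 0.0097 and 0.0139), and the Lpcat1 call ended only without the 3 Y-signal arrays (limma adjusted p = 0.0691).

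Of 12 measured of 14 fatty acid oxidation genes, 2 rose and 2 fell in Yy1 mutants, and 1 rose and 0 fell in Dicer mutants (limma, 0 lower at an unadjusted p under 0.05). The background over all genes was 2.77% higher and 3.84% lower in Yy1 mutants and 4.78% higher and 3.97% lower in Dicer mutants, and 1 of 12 higher is near it. The medians were 0.06 and 0.13. Pdk4, a kinase that turns cells from glucose to fat as fuel, read 6.20, 6.14, 6.38 and 5.85 in controls, 7.31, 7.13, 7.15 and 6.65 in the Yy1 mutants and 6.28 to 6.56 in the Dicer mutants. It rose in Yy1 mutants by 0.92 (SE 0.138, limma adjusted p = 0.00103), while the acyl-CoA dehydrogenases Acadl and Acadm fell there by 0.44 and 0.39 on the log2 scale (limma adjusted p = 0.000748 and 0.00253). All 3 calls were kept in all 20 settings.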

How the data were processed

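The deposited table of the whole series held log2 values for 41345 probe sets on 12 arrays. The base is inferred from their range of 1.10 to 13.6. How the values were summarised and normalised between arrays, with which software, and on which array design is not given in the sources used here. Array medians lay at 5.99 to 6.08, and pairs of arrays correlated at 0.978 to 0.991 with 0 identical pairs. A probe set took its gene from the platform annotation where that gave 1 symbol (23521 probe sets, against 1814 with several and 16010 with none).

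The members, the lists and the tests were chosen with earlier results of these data known. Genotypes were fitted together in limma 3.58.1 (R 4.3.3, 9 residual degrees of freedom), with a two-sided moderated test and Benjamini-Hochberg adjustment over all 22180 genes. Named were all called members, uncalled members of neighbouring steps, and, of a further list, up to 4 called genes per comparison. Some of these are also given in another comparison, and Nr1h3 is named in addition. Each call was repeated under 20 alternatives: quantile normalisation, equal array medians, no dim genes, the mean of all probe sets, a trended robust prior, the 2 groups alone, a replicate block, no Y-signal arrays, and without each array. The procedure was run on simulated data of independent normal values with shifts larger than most member differences. That run therefore does not bear on calls of the size seen here. With 4 arrays per genotype, precision is limited by their number. Promoters and the microRNA are RefSeq's, and plots used Python 3.11.15.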

Additional observations from a re-analysis of the deposited data

Results flagged for a closer look

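Hmgcs1 on control 1 stood apart from the other controls. It read 10.13, where the other controls read 9.86 to 9.90, and its gap to the nearest of them was 0.851 of the range of the 4 arrays. Of 93 groups of 4 arrays examined in this way this was the only one to pass the threshold, and chance alone passes about 1 group in 20. Without control 1 the difference of Hmgcs1 in Yy1 mutants was -0.28 and no longer called (limma adjusted p = 0.0629).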

How the results depend on the processing

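The count of fatty acid genes called lower moved most. In Dicer mutants (main 1) it was 0 with equal array medians, 2 without the dimmest 30% of genes, 3 with an intensity trend and robust prior, 0 with only the 2 groups compared, 0 without the 3 Y-signal arrays, and 0 to 2 without single arrays. In Yy1 mutants (main 2) it was 0 with only the 2 groups, 0 without the 3 Y-signal arrays and 0 to 2 without single arrays. Without those 3 arrays, 606, 976 and 435 genes were called in Yy1 mutants, in Dicer mutants and between them (main 1465, 1940 and 1101), and 2 sterol enzymes were lower in Yy1 mutants; single arrays gave 1275 to 1991 genes in Dicer mutants and 726 to 1180 between the mutants. Sterol enzymes called lower in Dicer than in Yy1 mutants (main 0) were 1 without the dimmest genes and 0 to 1 without single arrays, and their median (main -0.11) was -0.0763 with equal medians, -0.0785 without the 3 arrays and -0.112 to -0.0774 without single arrays. The cause was not tested. The replicate block, whose numbers did not pair the samples (correlations of -0.161 to 0.19, the own number best in 6 of 24), gave 1301, 1848 and 997 calls and 1 fatty acid gene lower in Yy1 mutants; Hmgcs1 and Fasn in Yy1 mutants (adjusted p = 0.056 and 0.0506, limma), Cyp51 and Acaca in Dicer mutants (0.0574 and 0.0559) and Ebp (0.0523) lost their calls. Uncalled differences near 0 changed sign: between the mutants Fads2 was 0.00102 under quantile normalisation and 0.0199 with equal medians and -0.0526 to 0.0236 without single arrays, Dhcr7 was 0.0199 with equal medians, and without the 3 arrays Sqle was -0.0861 and Scd1 0.0511. In Yy1 mutants Tm7sf2 was -0.00702 without those arrays and Scap 0.0596 as the mean of its probe sets. Without single arrays, Pmvk was -0.0314 to 0.0165, Insig2 -0.057 to 0.0485 and Scap -0.0471 to 0.0343 in Yy1 mutants, Insig2 -0.0146 to 0.091 and Elovl5 -0.0734 to 0.00648 in Dicer mutants, and between the mutants Sqle was -0.0426 to 0.0779, Dhcr7 -0.0593 to 0.0104 and Insig2 -0.00741 to 0.0645. Other calls that ended without an array are given beside them in the report; Cyp51 and Acaca in Dicer mutants also ended with equal array medians (0.0674 and 0.0656), Cyp51 with averaged probe sets (0.0503), and, with only the 2 groups compared, Cyp51, Fasn and Acaca in Yy1 mutants (0.0523, 0.0871 and 0.0521) and Mvk, Cyp51, Srebf2 and Acaca in Dicer mutants (0.05 to 0.0649).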
